A study of Mus musculus with 10 samples.

Results

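The clustered protocadherins are cell-surface adhesion proteins of the nervous system, encoded by 3 neighbouring gene clusters, alpha, beta and gamma, on mouse chromosome 18. Genes were chosen by symbol: 58 symbols of the Pcdha, Pcdhac, Pcdhb, Pcdhga, Pcdhgb and Pcdhgc series matched (14 alpha, 22 beta, 22 gamma). Of these, 56 had at least 10 counts summed over the 10 libraries (13 alpha, 21 beta, 22 gamma), out of 27178 gene IDs in the table. Pcdha4 and Pcdhb1 had 0 counts in every library and were not analysed further. The genes on either side of Pcdha4 had 633 and 603 counts in total. A read-through gene, Gm37013, named after its count was seen, also had 0. Whether the zero of Pcdha4 reflects expression or the counting of overlapping reads was not tested. On GRCm38.p6, the assembly behind the mm10 build used by the authors, the genes run on the plus strand from 36930285 at the start of Pcdha1 to 37841873 at the end of Pcdhgc5.

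In an alpha or gamma transcript, 1 of many tandem variable exons, each with its own promoter, is spliced to a set of constant exons shared by the whole cluster, whereas most beta genes are a single exon with no constant part. Neurons switch on small and largely random sets of these promoters, a choice that involves promoter methylation, the architectural protein CTCF and cohesin. The c-type genes Pcdhac1, Pcdhac2, Pcdhgc3, Pcdhgc4 and Pcdhgc5 are expressed more uniformly. The proteins bind like to like between membranes, which lets a neuron tell its own branches from those of others and is known to shape dendrites, axon spacing and neuron survival.

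The study concerned CCN1, a secreted matricellular protein, and GPC4, a membrane-anchored heparan sulfate proteoglycan, in maintenance of cortical neural stem cells. Messenger RNA was sequenced from GFP-positive cells sorted out of dissociated mouse cerebral cortex, in 5 groups with 2 libraries each. WT and CcKO libraries came from C57BL/6 cortex at E17.5. DNA had been injected into the lateral ventricle and electroporated at E14.5, and the PiggyBac plasmid of both groups was the empty control, PB-Ctrl. WT is labelled wildtype, and CcKO carries Nestin-Cre, which acts in neural progenitors, together with Ccn1fl/fl. PB-Ctrl, PB-CCN1 and PB-GPC4 libraries came from wildtype ICR cortex at E15.5, electroporated at E13.5 with the control, CCN1 or GPC4 version of the plasmid, in that order. PiggyBac is a transposon whose cargo is inserted into the genome, and all 5 groups received 3 µg/µl of transposase plasmid with 1.5 µg/µl of the PiggyBac plasmid. Any effect of Cre or of the floxed alleles cannot be told apart from loss of Ccn1 in CcKO. The labels do not tell whether replicates are different embryos, so each p-value reflects only the spread of these libraries, which may be technical.

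Total counts ranged from 22505945 to 30825498 per library, and the 56 genes together took 0.0369 to 0.0662% of them. Levels are CPM (counts scaled to a common library size) after trimmed-mean (TMM) normalisation. Ccn1 stood at 17.7 and 12.1 CPM in WT and at 0.669 and 3.11 CPM in CcKO, and PB-CCN1 held 7099 and 7004 CPM against 50.5 and 57.4 CPM in its control. Gpc4 reached 5118 and 5004 CPM in PB-GPC4, against 70.6 and 66.1 CPM in its control. The label checks therefore held for all 3 manipulations, with some Ccn1 transcript left in CcKO replicate 2. Of the cell type lists, 15 neuron markers summed to 8413 to 9914 CPM and 12 radial glia markers to 1396 to 2074 CPM per library. Microglia, endothelial and erythroid markers each summed to at most 15.5 CPM.

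How reads were counted bears on every alpha and gamma value. The gene lengths behind the deposited FPKM (fragments scaled to gene length and library size) include the constant exons: for Pcdhgc3, 2568 bases of its own and 2119 shared bases make the 4687 deposited. Reads from constant exons were not counted in full for every gene of a cluster, since Pcdhgc5 had 1.64 CPM and Pcdhgc3 104 CPM in the same WT library. Whether such reads were dropped or assigned in another way is not given in the sources used here. If they were dropped, FPKM understates alpha and gamma against beta, so levels are also given per kilobase of a gene's own exon. The length used for FPKM does not enter a gene's fold change between groups. Fold changes did vary with length across genes, and results with a trend over gene length and GC content removed are given below. Up to 12.95% of the 100-base windows in an alpha gene's own exon recurred exactly in another clustered protocadherin, against at most 2.31% in the beta and 9.95% in the gamma genes, and reads from such windows may be lost or shared.

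Pcdhgc3, whose cytoplasmic part binds Axin1 and restrains Wnt signalling, was the most abundant member (Entrez 93706, chromosome 18, 37806410 to 37841873). It averaged 33.6 FPKM over the 10 libraries and 61.4 CPM per kilobase of its own exon. It took 37.8 to 45.5% of all gamma counts in each library. Next in the gamma cluster came Pcdhga11 with 4.71 FPKM (8.56 CPM per kilobase of own exon) and Pcdhgb6 with 4.21 FPKM (7.70 CPM per kilobase of own exon). Pcdhgb7, at 4.19 FPKM, stood ahead of Pcdhgb6 per kilobase of own exon (7.89 CPM). Pcdhgc4, the gamma gene that mice need for interneuron survival, averaged 3.08 FPKM (Entrez 93707, 37815079 to 37841873). Pcdhgc5, the last gene of the locus, averaged 0.580 FPKM (Entrez 93708, 37819546 to 37841873). A single c-type gene thus took the largest share of gamma counts, while Pcdhgc4 lay within the range of the A and B genes. Among those genes only a transcribed pseudogene (0.482 FPKM) lay below Pcdhgc5. Per kilobase of own exon Pcdhgc5 stood at 1.05 CPM, below every A and B gene with a value, the lowest of which stood at 2.44.

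In the beta cluster Pcdhb17 (Entrez 93888, 37485021 to 37488290) led with 5.20 FPKM, before Pcdhb7 with 2.64 and Pcdhb20 with 2.47. In the alpha cluster the c-type gene Pcdhac2 (Entrez 353237, 37143678 to 37187663), which serotonergic neurons need to space their axons, led with 1.65 FPKM (3.48 CPM per kilobase of own exon), before Pcdha12 with 1.13 FPKM (2.47 CPM per kilobase of own exon) and Pcdha10 with 0.657 FPKM. Pcdhac1 averaged 0.244 FPKM. Pcdhac2 took 17.5 to 33.3% of alpha counts, with the largest shares in the CcKO libraries (33.3 and 30.3%) and shares of 25.7 and 27.7% in WT. Serotonin neuron markers were scarce in these cells: Fev, a transcription factor that defines serotonin neurons, had 0 counts in every library. Neighbours in these orders did not always differ beyond their spread: in WT, Pcdhgb6 stood at 4.52 ± 1.0 FPKM and Pcdhga11 at 3.22 ± 0.73 FPKM (SD, n = 2), the reverse of their order over all libraries.

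The summed level of each cluster separated CcKO from every other group for alpha and gamma. The alpha sum was 31.8 and 26.8 CPM in WT and 52.6 and 49.6 CPM in CcKO, against 33.7 to 38.1 CPM over the 6 libraries of the E15.5 groups. The gamma sum was 304 and 267 CPM in WT and 489 and 514 CPM in CcKO, against 346 to 392 CPM at E15.5. The beta sum was 86.9 and 70.8 CPM in WT, 92.6 and 101 CPM in CcKO, and 97.7 to 117 CPM at E15.5. CcKO libraries were thus the highest of all 10 for alpha and gamma, and within the range of the other groups for beta. WT replicate 2 was the lowest library in all 3 sums.

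**Figure D1:**
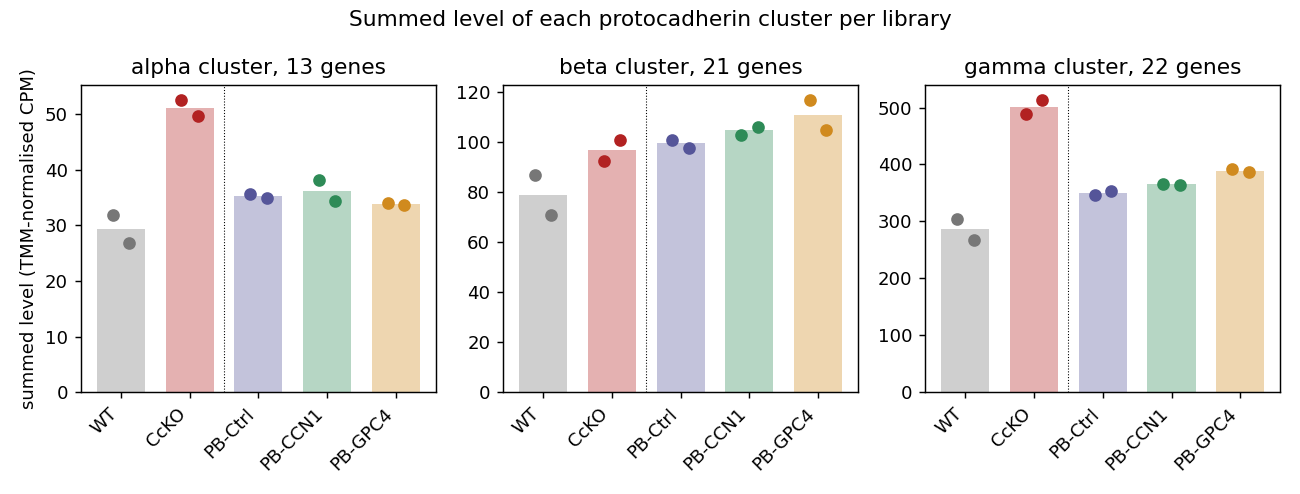
Summed TMM-normalised CPM of the alpha (13 genes), beta (21 genes) and gamma (22 genes) clusters in each group. Points are libraries, bars are group means (n = 2), and the dotted line parts the E17.5 groups on the left from the E15.5 groups on the right; the CcKO points stand above all others for alpha and gamma but not for beta.

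The comparison of CcKO with WT asks what changes in cortical cells when Ccn1 is lost. Most gamma genes rose and no clustered protocadherin fell, while the shares of alpha and beta genes that rose lay near or below those of other genes of similar length. By the edgeR quasi-likelihood test with Benjamini-Hochberg adjustment over 15371 genes, 27 of 56 genes (48.2%) were called at an adjusted p below 0.05, where 30.3% of all tested genes were called. All 27 rose, where 17.4% of all tested genes rose and 12.9% fell. The group means stood 1.76-fold higher in CcKO for the gamma sum, 1.74-fold for alpha and 1.23-fold for beta. Both CcKO libraries lay above both WT libraries for 41 of the 56 genes, where 32.7% of all tested genes did so, and below them for 1, where 28.6% did so. Counting all 56 whether called or not, the median log2 fold change was 0.69, against 0.02 over all tested genes.

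In the gamma cluster 20 of 22 genes rose (90.9%), with a median log2 fold change of 0.84. Of 857 other tested genes with lengths in the gamma range (4480 to 5080 bases), 28.6% rose. All 12 A genes rose, 6 of 7 B genes, and 2 of 3 c-type genes. Pcdhgc3 had 120 and 104 CPM in WT and 185 and 199 CPM in CcKO. The CcKO libraries lay well above both WT libraries and above all 6 E15.5 libraries, where the highest stood at 172 CPM. The rise was 1.72-fold (log2 fold change 0.78, SE 0.06, edgeR adjusted p = 2.1e-10). Pcdhgc4 had 13.4 and 14.8 CPM in WT and 26.6 and 29.8 CPM in CcKO. Its groups did not overlap, and it rose 2.00-fold (log2 fold change 1.00, SE 0.12, adjusted p = 3.17e-07). The remaining c-type gene, Pcdhgc5, had 2.82 and 1.64 CPM in WT and 4.57 and 3.30 CPM in CcKO. Those groups did not overlap either, but the difference of 1.77-fold did not pass the test (95% interval 1.10 to 2.85, adjusted p = 0.0611). It passed with no filter on low counts (0.0339) and without WT replicate 1 (0.0251), CcKO replicate 2 (0.0384) or PB-GPC4 replicate 1 (0.0470).

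Among the gamma A and B genes, which are alternatives in promoter choice, Pcdhga11 had 17.4 and 12.6 CPM in WT and 31.4 and 31.5 CPM in CcKO, a rise of 2.11-fold (log2 fold change 1.08, SE 0.12, edgeR adjusted p = 9.06e-08). Pcdhgb5 had 4.14 and 3.14 CPM in WT and 9.68 and 9.27 CPM in CcKO, the largest fold of any member at 2.62 (log2 fold change 1.39, SE 0.20, adjusted p = 3e-06). In both genes the CcKO replicates lay close together and far above WT. Pcdhga12 had 13.01 and 10.99 CPM in WT and 22.3 and 23.3 CPM in CcKO, and Pcdhga9 had 2.26 and 3.10 CPM in WT and 6.14 and 7.24 CPM in CcKO. These rose 1.90-fold (adjusted p = 1.3e-05) and 2.48-fold (adjusted p = 1.88e-05). The smallest called rise of the cluster was that of Pcdhgb6, which had 24.2 and 17.6 CPM in WT and 28.2 and 29.2 CPM in CcKO, 1.38-fold with adjusted p = 0.0058. It is also the gene whose WT replicates were farthest apart in CPM among the A and B genes, and without WT replicate 2 it did not pass (adjusted p = 0.224). Pcdhgb8, a transcribed pseudogene named here after its values were seen, was the B gene not called: 2.01 and 2.00 CPM in WT and 2.13 and 2.64 CPM in CcKO (adjusted p = 0.632).

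**Figure D2:**
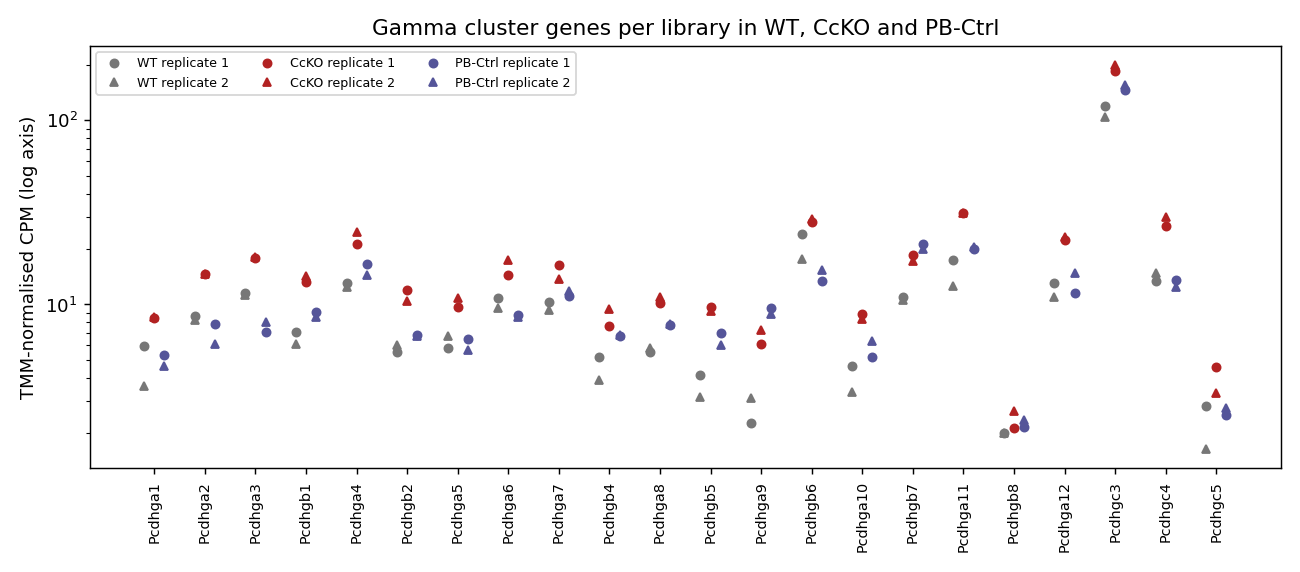
TMM-normalised CPM (log axis) of the 22 gamma genes, in order along the locus, in the WT, CcKO and PB-Ctrl libraries. Each marker is 1 library; for every gamma gene both CcKO markers lie above both WT markers, while PB-Ctrl markers lie above, among or below those of WT depending on the gene, and Pcdhgc3 stands above all other genes in each library.

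Between 18 and 21 gamma genes were called with any 1 library left out, 20 with DESeq2, and 19 after a trend with gene length and GC content was removed from every library. After its removal 18.1% of all tested genes were called, the gamma median log2 fold change went from 0.84 to 0.72, and the called gamma genes at 2-fold or more went from 6 to 2. For Pcdhgc3 the log2 fold change was then 0.67 (adjusted p = 5.61e-09), and for Pcdhgc4 0.87 (adjusted p = 5.62e-06), while Pcdhgb6 did not pass (adjusted p = 0.0579).

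In the alpha cluster 5 of 13 genes rose (38.5%), and the median log2 fold change over all 13 was 0.74. That share is close to the 36.4% of 225 other tested genes with lengths in the alpha range (5206 to 5422 bases) that rose, whose median log2 fold change was 0.18. With the length and GC trend removed, 15.4% of alpha genes were called, where 18.1% of all tested genes were, so the count sets the cluster apart under neither setting. The c-type gene Pcdhac2 had 8.19 and 7.42 CPM in WT and 17.52 and 15.03 CPM in CcKO. All 6 E15.5 libraries lay between 6.10 and 7.68 CPM, so only the CcKO libraries stood out. The rise was 2.09-fold (log2 fold change 1.06, SE 0.16, edgeR adjusted p = 1.09e-05, and 0.000283 with the length and GC trend removed). Pcdhac1, the alpha c-type gene that does not bind to itself in cell assays, had 1.19 and 1.32 CPM in WT and 2.01 and 1.38 CPM in CcKO and was not called (1.34-fold, 95% interval 0.683 to 2.63, adjusted p = 0.556). The alternate alpha genes, summed without these c-type genes, went from 22.4 and 18.0 CPM in WT to 33.1 and 33.2 CPM in CcKO, 1.64-fold by the group means.

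The 4 other alpha genes called were lower in level and less certain. Pcdha9 had 2.77 and 2.32 CPM in WT and 4.80 and 5.72 CPM in CcKO (2.07-fold, edgeR adjusted p = 0.00545). Pcdha7 had 2.35 and 1.32 CPM in WT and 3.82 and 3.66 CPM in CcKO (2.05-fold, adjusted p = 0.0218). Pcdha11 had 3.16 and 1.89 CPM in WT and 4.17 and 4.60 CPM in CcKO (1.75-fold, adjusted p = 0.0355). In each, both CcKO libraries lay above both WT libraries, as they did for Pcdha12 (1.46-fold, adjusted p = 0.0488), which passed in few alternatives and not with DESeq2 (adjusted p = 0.086). Without WT replicate 2 all 4 calls were lost (adjusted p = 0.0694 for Pcdha9, 0.264 for Pcdha7, 0.349 for Pcdha11 and 0.243 for Pcdha12), leaving 1 alpha gene called, and without CcKO replicate 1 or CcKO replicate 2 the count was 2. It was also 2 with the length and GC trend removed, and 3 with DESeq2 or with the E17.5 libraries fitted alone.

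In the beta cluster 2 of 21 genes rose (9.52%), below the 17.4% of all tested genes and the 16.7% of 6908 other genes of similar length (2319 to 5271 bases), and 20 of the 21 had a positive fold change. The median log2 fold change over all 21 was 0.51, against 0.06 over those 6908 genes. Pcdhb19 had 6.48 and 6.46 CPM in WT and 9.80 and 9.71 CPM in CcKO, with replicates almost equal in each group. It rose 1.51-fold (log2 fold change 0.59, SE 0.16, edgeR adjusted p = 0.00457). Pcdhb21 had 1.66 and 1.25 CPM in WT and 2.13 and 3.44 CPM in CcKO. It rose 1.92-fold (adjusted p = 0.0325), and its call was lost without CcKO replicate 2 (adjusted p = 0.35) and without WT replicate 2 (adjusted p = 0.22). The most abundant beta genes were not called: Pcdhb17 had 13.95 and 13.49 CPM in WT and 14.48 and 16.59 CPM in CcKO (1.13-fold, 95% interval 0.950 to 1.35). Pcdhb7 had 10.9 and 8.81 CPM in WT and 9.72 and 11.3 CPM in CcKO (1.07-fold, 95% interval 0.824 to 1.38). Pcdhb20 was the only member with a negative fold change, from 8.53 and 8.49 CPM in WT to 7.24 and 7.17 CPM in CcKO (0.847-fold, 95% interval 0.668 to 1.07, adjusted p = 0.304). The beta count was 5 without WT replicate 1 and 1 without WT replicate 2.

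The clusters differed in depth, which bears on their counts of calls. The median member had 61.7 counts per library in the alpha cluster, 73.7 in beta and 237 in gamma, and the median SE of a log2 fold change was 0.33, 0.30 and 0.16. The difference between clusters was not tested.

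**Figure D3:**
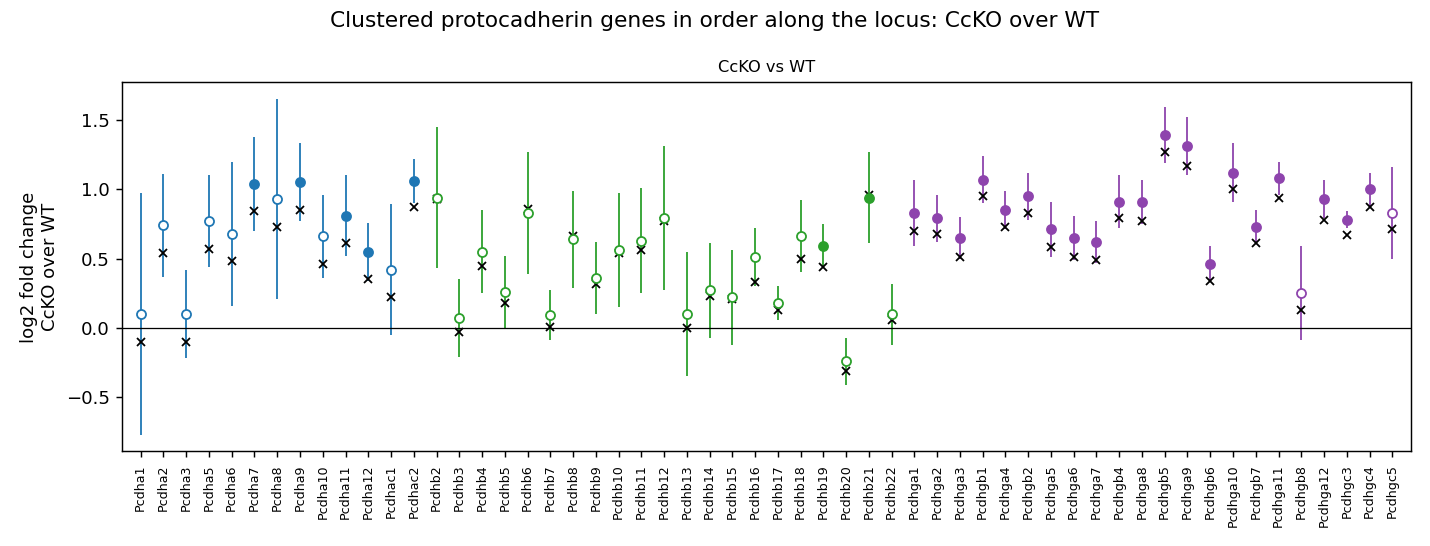
Log2 fold change of CcKO over WT for the 56 genes in order along the locus (alpha blue, beta green, gamma purple). Circles with bars of ± 1 SE are edgeR estimates, filled where the adjusted p is below 0.05 and open otherwise, and crosses are estimates with the length and GC trend removed; all gamma values lie above 0, and filled beta circles are those of Pcdhb19 and Pcdhb21.

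Genes that act on or beside the clusters, or belong to the same superfamily, were read in the same test. In it 17.4% of all tested genes rose and 12.9% fell, and 18.1% were called with the length and GC trend removed. These shares are not matched for gene length. Of 12 genes of chromatin architecture and cohesin, 8 rose and 0 fell in CcKO, among them Wapl, which releases cohesin from DNA (1.64-fold), its partner Pds5a (1.67-fold) and the cohesin loader Nipbl (1.43-fold). With the length and GC trend removed 4 rose and 2 fell. Of 16 genes of DNA methylation and silencing, 9 rose and 1 fell (4 and 2 with the trend removed). The rises included Rest, a repressor of neuronal genes, which went from 3.41 and 3.43 CPM in WT to 9.84 and 9.67 CPM in CcKO (2.85-fold, adjusted p = 1.16e-07), Atf7ip, a partner of the histone methyltransferase SETDB1 (1.63-fold), and the methylcytosine oxidase Tet3 (1.46-fold).

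Of 18 intracellular partners and proteases, 7 rose and 1 fell, where 17.4% of all tested genes rose and 12.9% fell. The rises included Adam10, a protease that sheds the ectodomain of gamma protocadherins (1.45-fold). They also included Nckap1 and Cyfip2, subunits of the actin-regulating WAVE complex (1.33-fold and 1.27-fold). With the trend removed 2 rose and 1 fell, and Cyfip2 did not pass (adjusted p = 0.211). Of 11 non-clustered protocadherins tested, 6 rose and 0 fell, with Pcdh17 at 1.98-fold, Pcdh10 at 1.51-fold and Pcdh9 at 1.41-fold (4 with the trend removed, when Pcdh10 did not pass, adjusted p = 0.181). Of 13 classical and type II cadherins tested, 7 rose and 0 fell under either setting, with the N-cadherin gene Cdh2 and Cdh4 each at 1.40-fold and Cdh8 at 1.31-fold. Of 14 genes beside the clusters tested, 1 rose and 5 fell (1 and 3 with the trend removed): the formin gene Diaph1 was 1.30-fold higher, while Ndufa2, a subunit of respiratory complex I, was 0.750-fold and the splicing factor Zmat2 0.814-fold. Ndufa2 did not pass with the trend removed (adjusted p = 0.445). The median log2 fold change of these 14 was -0.17.

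Markers of cell types moved too, where 17.4% of all tested genes rose and 12.9% fell. With the length and GC trend removed, 18.1% of all tested genes were called. Of 12 radial glia markers 7 rose and 0 fell, and their sum was 1533 to 1622 CPM in WT and 2006 to 2074 CPM in CcKO. The rises included the matrix protein Tnc (1.77-fold), the glutamate transporter Slc1a3 (1.40-fold) and Ptprz1 (1.37-fold). Of 15 neuron markers 6 rose and 5 fell, 3 and 4 with the length and GC trend removed, and their sums overlapped, at 9384 to 9914 CPM in WT and 9633 to 9645 CPM in CcKO. Bcl11b rose 1.63-fold and Dcx 1.23-fold, and with the trend removed Dcx lost its call and turned direction (log2 fold change -0.05, adjusted p = 0.38). Neurod2 (0.864-fold) and Snap25 (0.824-fold), named after their values were seen, were among those that fell. Reln, made by Cajal-Retzius cells, rose 2.74-fold (17.4 and 20.2 CPM in WT, 41.6 and 61.4 CPM in CcKO). Its list of serotonin and Cajal-Retzius markers held no other call. Trp73 (1.44-fold), Lhx5 (3.0-fold) and Tph2 (0.606-fold), named after their values were seen, were not called. The erythroid gene Hba-a1 rose 6.70-fold from 1.28 and 0.678 CPM, while Alas2, the other erythroid marker tested, was not called (0.746-fold). Erythroid markers summed to 2.25 to 2.77 CPM in WT and 5.90 to 9.49 CPM in CcKO. The part of these markers and lists in the protocadherin result was not tested. In bulk RNA of sorted cells, a changed share of cells of a type and a changed amount of RNA per cell cannot be told apart.

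The comparisons of PB-CCN1 and PB-GPC4 with PB-Ctrl ask what excess CCN1 or GPC4 does in cortical cells at E15.5, and both use the same PB-Ctrl libraries. No clustered protocadherin was called in either. In PB-CCN1, 0 of 56 genes were called by edgeR, where 1.19% of all tested genes were, and 0 by DESeq2 or by limma on log2(FPKM + 1). At an unadjusted p below 0.05 there were 3, named after their values were seen: Pcdhb4 (1.71-fold), Pcdhgb6 (1.22-fold) and Pcdhga12 (0.777-fold). The share of all tested genes below that threshold is not given, here or for the unadjusted counts that follow. Such counts therefore have no baseline and are not read as results. Pcdhgc3 had 146 and 155 CPM in PB-Ctrl and 159 and 166 CPM in PB-CCN1. Its groups did not overlap, and the ratio was 1.08-fold (95% interval 0.986 to 1.18, edgeR adjusted p = 0.534). Pcdhgc4 had 13.0 ± 0.75 CPM in PB-Ctrl (SD, n = 2) and 11.2 and 10.5 CPM in PB-CCN1, both below either PB-Ctrl library (0.838-fold, 95% interval 0.695 to 1.01, adjusted p = 0.463). Pcdhac2 had 7.68 and 6.10 CPM in PB-Ctrl and 6.99 and 7.07 CPM in PB-CCN1, which overlapped (1.02-fold, 95% interval 0.798 to 1.31).

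In PB-GPC4, 0 of 56 genes were called by edgeR, where 6.36% of all tested genes were, and 0 by DESeq2 or limma. At an unadjusted p below 0.05 there were 6, again without a share of all tested genes to set beside them. Pcdhgc3 had 172 and 170.2 CPM in PB-GPC4, above both PB-Ctrl libraries at 146 and 155 CPM. The ratio was 1.14-fold (log2 fold change 0.18, SE 0.06, 95% interval 1.04 to 1.24, edgeR adjusted p = 0.0773). It passed when the E15.5 libraries were fitted alone (adjusted p = 0.00548), with no filter on low counts (0.0117) and with the length and GC trend removed (0.0109), where 6.86% of all tested genes passed. It also passed without CcKO replicate 1, CcKO replicate 2 or WT replicate 2 (log2 fold changes 0.18, 0.19 and 0.18). Those libraries are in neither group and enter through the shared filter, normalisation, estimate of spread and adjustment. The gamma sum was 346 and 353 CPM in PB-Ctrl and 392 and 387 CPM in PB-GPC4, which do not overlap. The alpha sum was 35.6 and 34.9 CPM in PB-Ctrl and 34.0 and 33.7 CPM in PB-GPC4.

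Pcdhgc4 had 11.1 and 11.5 CPM in PB-GPC4, below both PB-Ctrl libraries (0.873-fold, 95% interval 0.727 to 1.05, edgeR adjusted p = 0.422). Pcdhb17 had 17.6 and 19.1 CPM in PB-Ctrl and 20.5 and 20.6 CPM in PB-GPC4, which do not overlap (1.12-fold, 95% interval 0.946 to 1.33, adjusted p = 0.482). Pcdhac2 had 6.86 and 6.30 CPM in PB-GPC4, within the range of PB-Ctrl. Both GPC4 libraries lay above both PB-Ctrl libraries for 15 of the 56 genes, where 26.7% of all tested genes did so, and below for 3, where 27.0% did so.

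The direct comparison of PB-CCN1 with PB-GPC4 also gave 0 calls among the 56 genes by edgeR, DESeq2 and limma, where 2.15% of all tested genes were called by edgeR. At an unadjusted p below 0.05 there were 5, all lower in PB-CCN1 and named after their values were seen: Pcdhb17 (0.827-fold), Pcdhb20 (0.756-fold), Pcdhga9 (0.751-fold), Pcdhgb7 (0.828-fold) and Pcdhgb8 (0.589-fold). The members' spread sets what could be seen: the SE of a log2 fold change in this comparison ran from 0.06 for Pcdhgc3 to 1.21, with a median of 0.24.

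**Figure D4:**
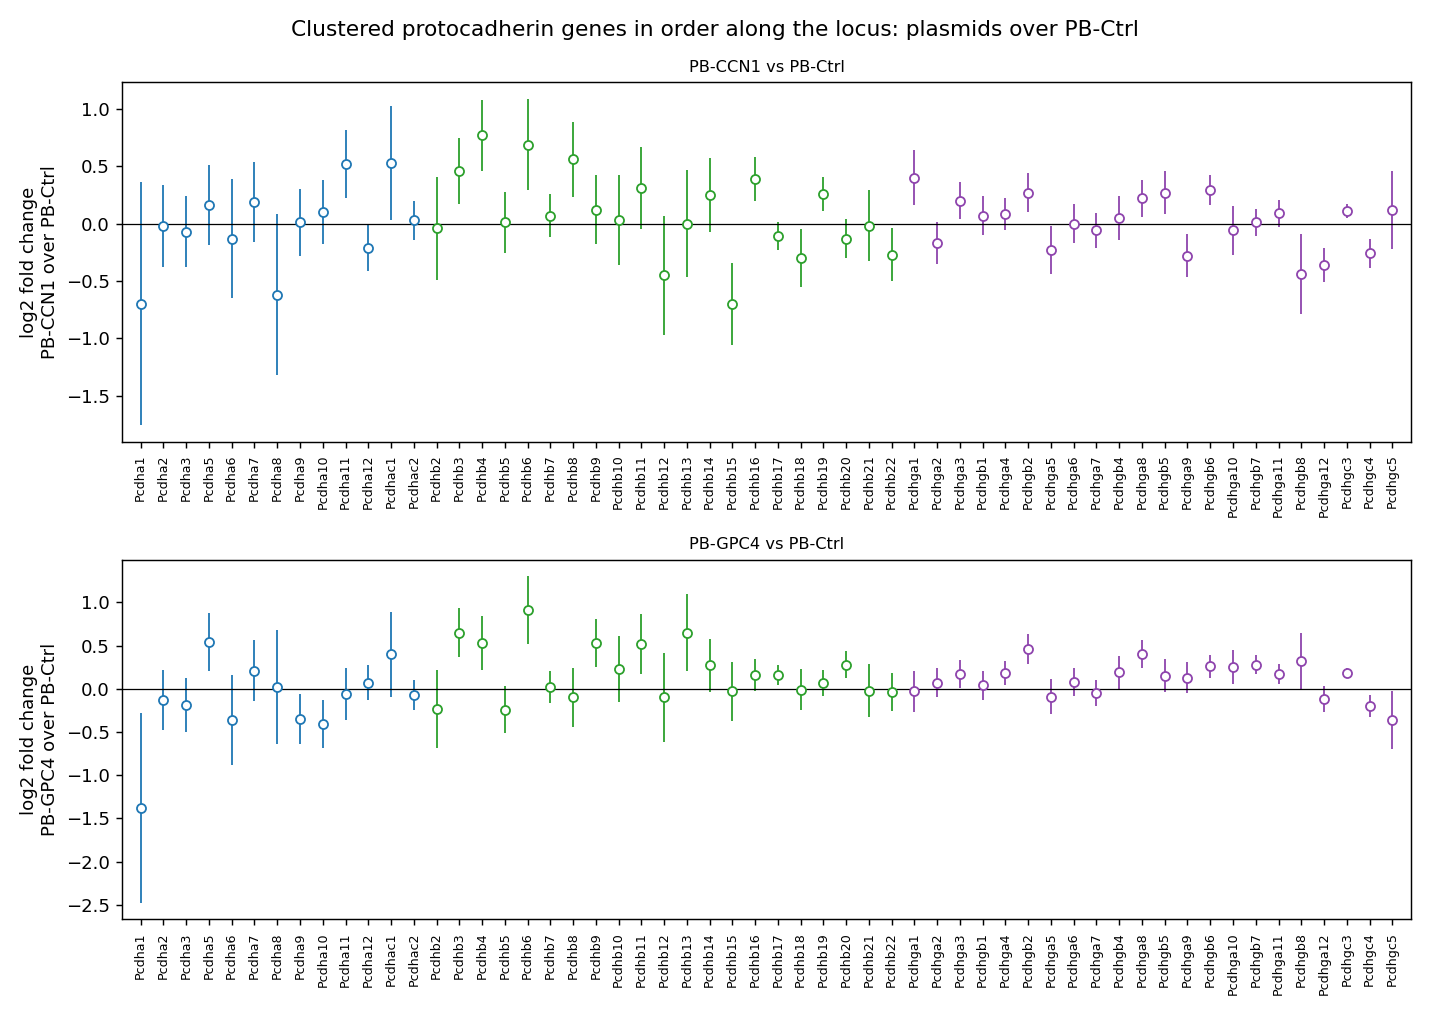
Log2 fold change of PB-CCN1 (top) and PB-GPC4 (bottom) over PB-Ctrl for the 56 genes in order along the locus (alpha blue, beta green, gamma purple). Circles with bars of ± 1 SE are edgeR estimates, all open because no adjusted p is below 0.05; the 2 panels share the PB-Ctrl libraries, and values lie on both sides of 0 in each cluster.

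Other genes and markers did move with the plasmids, where edgeR called 6.36% of all tested genes in PB-GPC4 and 1.19% in PB-CCN1. In PB-GPC4, 3 of 13 cadherins rose and 1 fell (Cdh8 1.39-fold, Cdh4 1.25-fold, Cdh2 1.13-fold), 2 of 11 non-clustered protocadherins fell (Pcdh8 0.783-fold, Pcdh20 0.361-fold), and 1 of 12 genes of architecture and cohesin rose (the cohesin subunit Rad21, 1.13-fold). In the order named, limma called 2, 1 and 0 genes of these PB-GPC4 lists. In PB-CCN1, Cdh4 (1.29-fold) and Cdh8 (1.19-fold) rose by edgeR, where DESeq2 called 2 cadherins and limma 0. EdgeR, DESeq2 and limma called 0 genes of the architecture, silencing, partner and non-clustered protocadherin lists in PB-CCN1. At an unadjusted p below 0.05 these lists held 0 of 12, 2 of 16, 1 of 18 and 5 of 11. Radial glia markers fell by edgeR, 8 of 12 in PB-GPC4 and 3 of 12 in PB-CCN1, with Tnc at 0.583-fold and 0.677-fold. Limma called 6 and 1 of the 12. PB-CCN1 libraries summed to 1437 to 1463 CPM and PB-GPC4 libraries to 1396 to 1444 CPM of these markers, below the control libraries at 1668 to 1679 CPM. Of 15 neuron markers 5 rose in PB-GPC4 by edgeR, where DESeq2 called 7 and limma 0. In PB-CCN1 edgeR, DESeq2 and limma called 0 of them, with 3 at an unadjusted p below 0.05. Whether these shifts bear on protocadherin levels was not tested.

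The remaining comparison sets the control groups side by side. WT and PB-Ctrl carry the same plasmid but differ in age (E17.5 and E15.5), strain (C57BL/6 and ICR), day of electroporation and experiment, which cannot be told apart. WT libraries also enter the comparison with CcKO, so the results are not independent. By edgeR, 20 of 56 genes (35.7%) were called, where 54.9% of all tested genes were. Of these, 3 were higher in WT (26.4% of all tested genes) and 17 lower (28.6%). The calls fell on 2 alpha, 7 beta and 11 gamma genes. Lower in WT were 2 of 13 alpha, 6 of 21 beta and 9 of 22 gamma genes. Of other tested genes in the same length ranges, 54.2%, 31.3% and 44.9% were lower, in that order. Higher in WT were 0 alpha, 1 beta and 2 gamma genes, against 9.78%, 20.9% and 14.4% of those other genes. With the length and GC trend removed, 7 of the 56 genes were higher (23.8% of all tested genes) and 11 lower (23.7%).

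Pcdhga9 differed most by p, with 2.26 and 3.10 CPM in WT and 9.57 and 8.86 CPM in PB-Ctrl (0.294-fold, log2 fold change -1.77, SE 0.21, edgeR adjusted p = 2.63e-08). The E15.5 libraries of PB-CCN1 and PB-GPC4 held 6.72 to 10.7 CPM, and CcKO at E17.5 held 6.14 and 7.24 CPM, so WT was lowest of the 5 groups. Pcdhgb7 had 11.01 and 10.63 CPM in WT, 18.5 and 17.3 CPM in CcKO, and 21.3 and 20.1 CPM in PB-Ctrl. WT lay below PB-Ctrl with no overlap (0.524-fold, adjusted p = 2.04e-07). Pcdhgc3, at 120 and 104 CPM in WT and 146 and 155 CPM in PB-Ctrl, was 0.742-fold (adjusted p = 1.54e-06).

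The 3 genes higher in WT were Pcdhga3, Pcdhgb6 and Pcdhb9. Pcdhga3 had 11.6 and 11.3 CPM in WT and 7.10 and 8.01 CPM in PB-Ctrl (1.51-fold, edgeR adjusted p = 0.00167). Pcdhgb6 had 24.2 and 17.6 CPM in WT and 13.4 and 15.3 CPM in PB-Ctrl (1.45-fold, adjusted p = 0.000981), a call lost without WT replicate 1 (adjusted p = 0.0842). Pcdhb9 had 5.33 and 4.14 CPM in WT and 1.97 and 2.62 CPM in PB-Ctrl (2.05-fold, adjusted p = 0.00244). In each, both WT libraries lay above both PB-Ctrl libraries.

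Several beta genes were lower in WT. Pcdhb16 had 4.39 and 2.96 CPM in WT and 8.53 and 7.16 CPM in PB-Ctrl (0.466-fold, edgeR adjusted p = 4.34e-05). Pcdhb19 had 6.48 and 6.46 CPM in WT and 11.92 and 10.95 CPM in PB-Ctrl (0.566-fold, adjusted p = 5.23e-05), and Pcdhb18 had 4.35 and 2.25 CPM against 7.95 and 7.09 CPM (0.434-fold, adjusted p = 0.000247). Pcdhb17, the most abundant beta gene, was 0.748-fold (adjusted p = 0.0049, and 0.0852 without PB-Ctrl replicate 2). No library of WT reached the level of PB-Ctrl in any of these 4 genes.

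The alpha genes called were Pcdha10 (2.47 and 1.36 CPM in WT, 5.05 and 3.69 CPM in PB-Ctrl, 0.435-fold, edgeR adjusted p = 0.00107) and Pcdha12 (4.48 and 3.92 CPM in WT, 6.29 and 6.91 CPM in PB-Ctrl, 0.635-fold, adjusted p = 0.00899). The Pcdha12 call was lost without WT replicate 2 (adjusted p = 0.0755) and without PB-Ctrl replicate 2 (0.0835). The gamma count was 7 without either of those libraries. Among the c-type genes, Pcdhac2 (1.13-fold, 95% interval 0.889 to 1.45), Pcdhgc4 (1.09-fold, 95% interval 0.906 to 1.30), Pcdhgc5 (0.844-fold, 95% interval 0.521 to 1.37) and Pcdhac1 (1.35-fold, 95% interval 0.669 to 2.72) were not called. With the length and GC trend removed, Pcdhac2 and Pcdhgc4 were called higher in WT (log2 fold changes 0.47 and 0.31, adjusted p = 0.0245 and 0.0452).

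**Figure D5:**
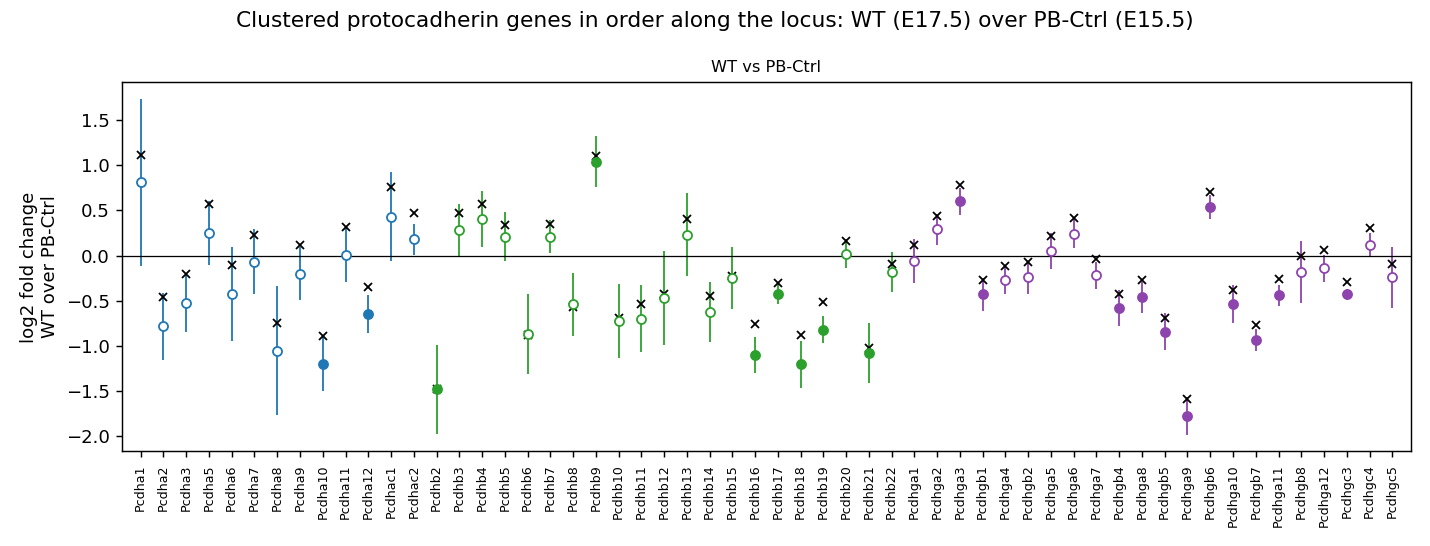
Log2 fold change of WT (E17.5) over PB-Ctrl (E15.5) for the 56 genes in order along the locus (alpha blue, beta green, gamma purple). Circles with bars of ± 1 SE are edgeR estimates, filled where the adjusted p is below 0.05, and crosses are estimates with the length and GC trend removed; most filled circles lie below 0, the lowest being Pcdhga9 at -1.77, and those above 0 are Pcdhb9, Pcdhga3 and Pcdhgb6.

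The cells of the control groups also differed in their other genes. Among all tested genes, 26.4% were higher in WT and 28.6% lower. With the length and GC trend removed, these shares were 23.8% and 23.7%. They are not matched for gene length. Of 12 genes of architecture and cohesin 10 were lower in WT, with Pds5a at 0.391-fold, Wapl at 0.455-fold and Nipbl at 0.509-fold (2 higher and 7 lower with the length and GC trend removed). Of 16 silencing genes 12 were lower (1 higher and 8 lower with the trend removed). Of 11 non-clustered protocadherins 6 were lower and 1 higher, with Pcdh17 at 0.392-fold (4 lower and 2 higher with the trend removed, when the median log2 fold change went from -0.96 to -0.33). Markers of the oligodendrocyte lineage summed to 93.0 to 103 CPM in WT and 23.1 to 25.6 CPM in PB-Ctrl, and all 8 intermediate progenitor markers were lower in WT. Of 10 interneuron markers 9 were higher in WT (7 higher and 1 lower with the trend removed), with sums of 89.2 to 102 CPM against 55.9 to 59.8 CPM in PB-Ctrl. Of 7 astrocyte markers tested 2 were higher and 1 lower, with sums of 71.5 to 72.0 CPM against 38.7 to 41.0 CPM. Their part in the protocadherin differences was not tested.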

How the data were processed

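The authors deposited 1 sheet per library with raw read counts per Entrez gene ID and FPKM. Per the submitters' processing notes, bcl2fastq, Trimmomatic, HISAT2 and featureCounts were used on mm10, with no versions or settings given; strandedness is not given in the sources used here. Per the labels' protocols, RNA was extracted with TRIzol and KAPA Hyper Prep was the library kit. The deposited FPKM follow from the counts, the library totals and 1 length per gene, with 0 bases of deviation. Symbols came from RefSeq (GRCm38.p6) for 25274 of 27178 IDs, and exons from GENCODE M21.

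Counts were tested with the edgeR 4.0.16 quasi-likelihood F-test (R 4.3.3), two-sided, with TMM normalisation, filterByExpr (15371 genes kept, all 56 members among them) and 5 group means in 1 model with 5 residual degrees of freedom. P-values were adjusted over all tested genes by the Benjamini-Hochberg method, with a threshold of 0.05. Intervals are 95% and cover the fitted error. Alternatives were relative log expression, no filter, a replicate block, each experiment alone, each library left out in turn, DESeq2 1.42.0, limma 3.58.1 on log2(FPKM + 1) of the deposited FPKM, and removal of a lowess trend (span 0.3) with gene length and GC content (GC known for 90.4% of tested genes and all members). The test was checked on simulated counts. Replicates of a group differed beyond counting error (chi-square per degree of freedom 3.37 to 8.71), so each library was counted separately; this does not show that they came from different embryos.

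The members and lists were chosen with earlier results of these data known. Genes named are Ccn1 and Gpc4, the c-type genes, the 3 members per cluster with the highest mean FPKM, up to 6 called members per cluster and comparison with the smallest p, and up to 3 called genes per list and comparison with the smallest p; others are marked where named, and some named by the rule are not reported here. Counts for the interneuron, astrocyte, choroid plexus and remaining marker lists are given with the other observations.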

Additional observations from a re-analysis of the deposited data

How the results depend on the processing

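Leaving out each library in turn, the number of clustered protocadherins called ranged from 20 to 30 for CcKO against WT, was 0 throughout for PB-CCN1 against PB-Ctrl and for PB-CCN1 against PB-GPC4, ranged from 0 to 1 for PB-GPC4 against PB-Ctrl, and from 13 to 20 for WT against PB-Ctrl. The lowest value in the first and last comparison came without WT replicate 2. Apart from removal of the length and GC trend, the share of all tested genes called is not given for the alternatives. A change in the members' counts there cannot be told apart from a change over all genes. The gene gained in PB-GPC4, also with the E15.5 libraries fitted alone, no filter on low counts or the length and GC trend removed (1 called in each), was Pcdhgc3; the cause was not tested. For CcKO against WT the count was 25 with DESeq2, 24 with limma or the E17.5 libraries alone, 23 with the trend removed, 28 with no filter and 27 with relative log expression. The gamma sum in PB-CCN1 over PB-GPC4 moved from a log2 ratio of -0.09 to -0.12 without the c-type genes, and the alpha sum in WT over PB-Ctrl from -0.27 to -0.44. Of 2100 results for single named members under alternatives, 41 lost a call, 18 gained one and 2041 kept their side of the threshold. Among the last, 58 changed sign, all of them uncalled under both settings, and no call reversed. No pairing of libraries by replicate number was seen: same-numbered libraries of different groups deviated with correlations of -0.0676 to 0.018. Such correlations cannot show that the libraries were unpaired. With the replicate block the counts were 27, 0, 0, 0 and 20, as without it. The median SE of a log2 fold change in CcKO against WT was 0.33 in the alpha, 0.30 in the beta and 0.16 in the gamma cluster, which limits what 2 libraries a group can show.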

Other observations

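Levels within the alpha cluster followed the order of its genes along the chromosome. Over the 11 alternate alpha genes, Spearman's rho between position and mean FPKM was 0.75, with the genes nearest the constant exons highest; it was 0.45 over the 21 beta genes and 0.16 over the 19 alternate gamma genes. These are descriptions, since the genes share the same libraries and neighbouring promoters are not independent. The fold changes of CcKO over WT showed little such order, with rho of 0.32, -0.11 and 0.13 in the alpha, beta and gamma clusters. Pcdha1, the gene farthest from the constant exons, averaged 0.0623 FPKM, and Pcdha12 averaged 1.13 FPKM.

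The share of gamma counts taken by Pcdhgc4 was 4.39 and 5.54% in WT, 5.45 and 5.80% in CcKO, and 2.83 to 3.90% over the 6 E15.5 libraries, so the E17.5 and E15.5 libraries did not overlap. For Pcdhgc3 the share was 39.4 and 39.0% in WT, 37.8 and 38.7% in CcKO, and 42.3 to 45.5% at E15.5, also without overlap and in the opposite direction. Such separation was not particular to c-type genes and went in either direction. Pcdhga3 took 3.51 to 4.24% at E17.5 and 1.94 to 2.44% at E15.5, and Pcdhgb7 3.37 to 3.99% and 5.31 to 6.91%. Shares of other gamma genes, such as Pcdhga11, overlapped. Age, strain and experiment cannot be told apart in these shares. The differences were noticed in the data and were not tested.

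The remaining marker lists in CcKO against WT are given by their counts, where 30.3% of all tested genes were called. Of 8 intermediate progenitor markers 1 rose and 3 fell (4 rose and 0 fell with the length and GC trend removed), of 7 astrocyte markers tested 1 rose (Slc1a2, 1.93-fold), of 7 oligodendrocyte lineage markers 1 rose (Cspg4, 2.18-fold), and of 6 microglia markers tested 1 rose (P2ry12, at most 1.38 CPM). The last 2 calls were lost with the trend removed. Of 8 endothelial and mural markers edgeR and DESeq2 called 0 and limma 3, with 4 at an unadjusted p below 0.05, and their sum was 7.94 to 11.3 CPM in WT and 15.4 to 15.5 CPM in CcKO. Of 2 choroid plexus and ependymal markers tested, 0 were called by edgeR, DESeq2 or limma, and 0 had an unadjusted p below 0.05. In PB-GPC4 against PB-Ctrl, 4 of 10 interneuron markers fell by edgeR, with Sst at 0.260-fold and Lhx6 at 0.549-fold. Limma called 1 of the 10.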
